A study of Mus musculus with 4 samples.

Results

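The Hox genes are described here in RNA sequencing of mouse pancreas. Members were all genes whose symbol is Hox, a cluster letter from a to d and a number, which gave 39 of the 55291 gene symbols in the count files. There were 4 libraries. The 2 control libraries came from mice of genotype Pdx1-Cre+, poh1f/+, with 1 floxed copy of poh1, and the 2 libraries labelled knockout from mice of genotype Pdx1-Cre+, poh1f/f, with both copies floxed. All 4 thus carried the same Cre, which Pdx1 drives in the epithelial lineages of the pancreas and not in its stroma. Age and sex of the mice are not stated in the sources used here, nor whether a library was 1 animal or a pool, and the spread behind each p-value is therefore the spread of these libraries, which may be technical. The comparison asks how loss of poh1 (now Psmd14), a deubiquitinase of the proteasome, changes expression in the pancreas.

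Hox genes encode homeodomain transcription factors that give cells along the head-to-tail axis their positional identity. In mammals they lie in clusters in which the order of the genes follows the order of their domains along the body: low paralogue numbers act towards the head and high numbers towards the tail. Adult fibroblasts, smooth muscle and other mesenchymal cells keep much of the Hox pattern of the place they were formed in, whereas the pancreatic epithelium, of foregut origin, depends on the ParaHox gene Pdx1. In the mouse annotation (GENCODE M21, GRCm38) the Hoxa cluster has 11 members on the minus strand of chromosome 6. The Hoxb cluster has 10 on chromosome 11 (96194316 to 96368256, plus strand), the Hoxc cluster 9 on chromosome 15 (102921103 to 103036852, plus strand) and the Hoxd cluster 9 on chromosome 2 (74668310 to 74765142, plus strand). Of the 39 members, 16 share exon bases with another annotated gene, and Hoxb3, Hoxd3 and Hoxd4 share more than 50% of theirs, so the counts of these 3 are the least certain.

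Total counts ranged from 22875618 to 27849730 per library. Values are CPM, counts relative to the scaled library total, in which 1 count was worth 0.0342 to 0.0455 CPM. At the gene level Psmd14, the targeted gene, did not decrease with the label (57.3 ± 6.13 CPM in controls and 65.6 ± 0.444 CPM under the knockout label, SD, n = 2 each; log2 fold change 0.20 ± 0.11, SE, edgeR adjusted p = 0.259), so every direction below is one between labels. Acinar markers, which define the labelled tissue, summed to 2160 to 9040 CPM in controls and 199 to 610 CPM in the libraries labelled knockout. Knockout replicate 2 stood apart by intestinal epithelial RNA: the 11 markers summed to 794 CPM there, 45.2 CPM in knockout replicate 1 and 93.3 to 112 CPM in controls, and Alpi and Sis, brush border enzymes, were at 0 counts in the other 3 libraries. Values without this library are given beside the results it moved most.

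Hox RNA reached a similar total under both labels and came mostly from paralogues 4 to 8 in every library, while the smaller share of paralogues 9 to 13 differed. The 39 members summed to 3343 and 3774 counts in the controls and to 3901 and 4086 under the knockout label, or 155 ± 4.12 CPM against 140 ± 0.0961 CPM (SD, n = 2). Paralogues 9 to 13, the group of the trunk's hind part and the limbs, gave 1.73% of the Hox counts in control replicate 1 (95% Wilson interval 1.34 to 2.24%) and 2.49% in control replicate 2 (2.04 to 3.04%). They gave 11.1% in knockout replicate 1 (10.2 to 12.2%) and 8.91% in knockout replicate 2 (8.07 to 9.82%). Both libraries labelled knockout were therefore above both controls, by 7.90 percentage points on average, and by 9.01 without knockout replicate 2. These intervals cover counting error only, and an exact permutation test of 2 against 2 libraries cannot give a two-sided p under 0.333, so the shares carry no test. Bulk RNA does not tell fewer cells of a type from less RNA per cell.

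The shares of the other classes overlapped between labels. Paralogues 1 to 3 gave 22.5% and 29.6% of Hox counts in controls and 24.3% and 14.3% in knockout replicates 1 and 2. Paralogues 4 to 8, the largest class, gave 75.8% and 67.9% in controls and 64.5% and 76.8% in the libraries labelled knockout. Knockout replicate 2 had the lowest share from paralogues 1 to 3 and the highest from 4 to 8. The mean paralogue number weighted by counts was 4.90 and 4.54 in controls and 5.34 and 5.84 in the libraries labelled knockout.

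**Figure D1:**
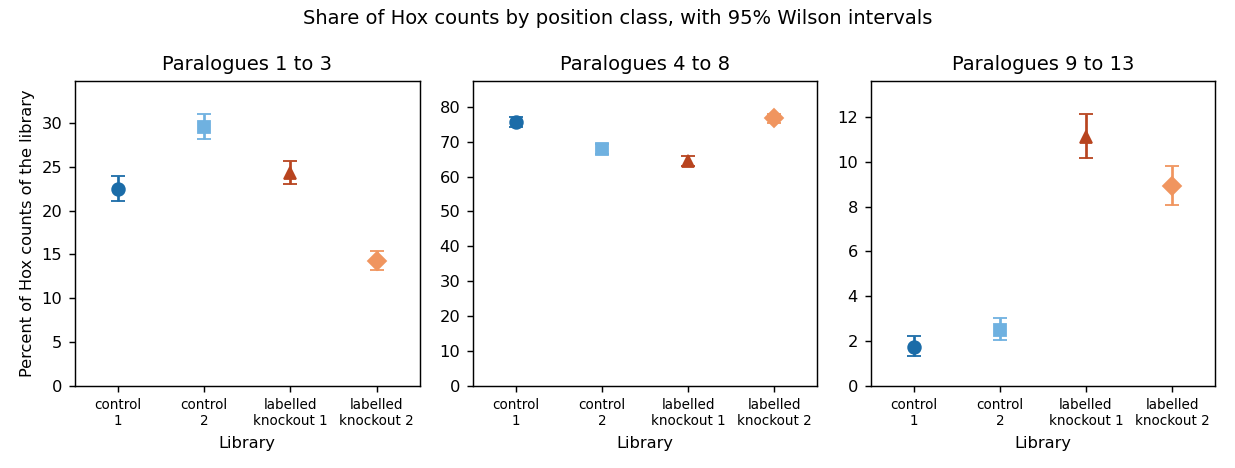
Percent of a library's Hox counts (y axis) from paralogues 1 to 3, 4 to 8 and 9 to 13 (panels) in each of the 4 libraries (x axis), with 95% Wilson intervals for counting error. Both libraries labelled knockout lie above both controls for paralogues 9 to 13 (11.1% and 8.91% against 1.73% and 2.49%), whereas the other classes overlap.

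Summed by paralogue number, the libraries labelled knockout were below both controls at numbers 2, 4 and 5 and above both at numbers 8, 9, 10 and 11. Paralogue 4 was the most abundant number in 3 libraries, at 37.3 and 42.5 CPM in controls against 30.7 and 26.7 CPM; in knockout replicate 2 paralogue 8 reached 27.8 CPM. Paralogue 5 stood at 28.6 and 31.8 CPM in controls and 20.1 and 16.9 CPM in the libraries labelled knockout. Around the middle of the series the groups overlapped, with paralogue 6 at 20.1 and 14.8 CPM in controls and 12.7 and 18.9 CPM in the libraries labelled knockout. Paralogue 9 stood at 2.46 and 1.72 CPM in controls and 8.60 and 9.11 CPM under the knockout label, and paralogue 10 at 0.182 and 1.21 CPM against 3.47 and 2.40 CPM. Paralogue 13 overlapped, with 0 and 0.711 CPM in controls and 2.11 and 0.342 CPM in the libraries labelled knockout.

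**Figure D2:**
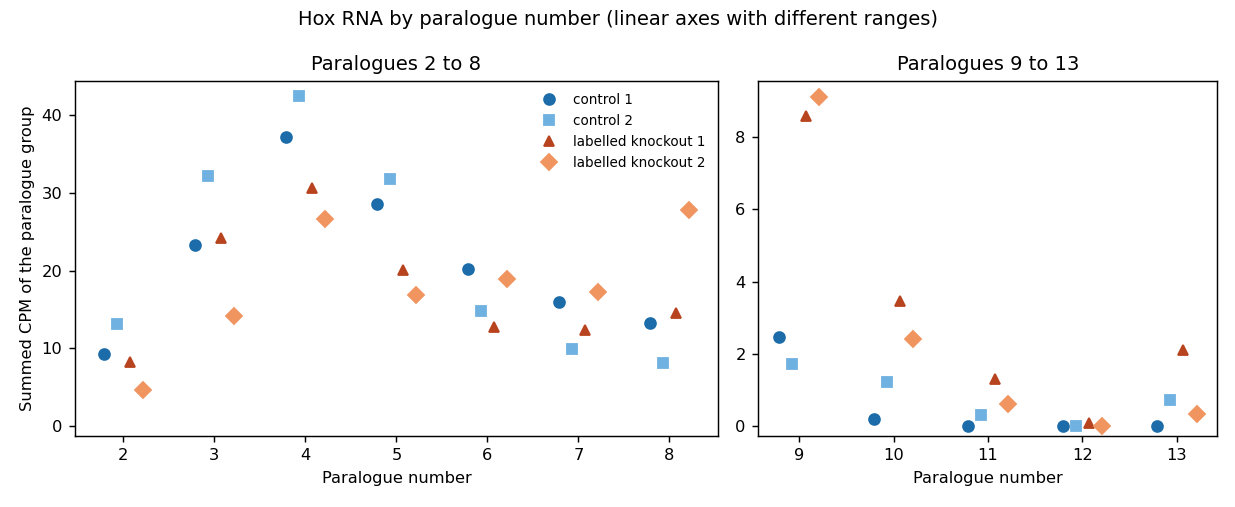
Summed CPM (y axis, linear, different ranges) of all members with the same paralogue number (x axis) in each library, with numbers 2 to 8 on the left and 9 to 13 on the right. Control points lie above those labelled knockout at numbers 4 and 5 and below them at numbers 8 to 11.

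How far each cluster was expressed towards its tail end differed between libraries as well. Taking a minimum of 10 counts, the highest-numbered Hoxc member present was Hoxc6 in both controls, Hoxc9 in knockout replicate 1 and Hoxc10 in knockout replicate 2. In the Hoxd cluster it was Hoxd9 in both controls, Hoxd13 in knockout replicate 1 and Hoxd10 in knockout replicate 2. The Hoxa cluster did not separate the labels in this way: it ended at Hoxa7 in control replicate 1, Hoxa13 in control replicate 2, Hoxa13 in knockout replicate 1 and Hoxa11 in knockout replicate 2. Hoxb9 was the last Hoxb member in 3 libraries and Hoxb8 (79 counts) in control replicate 2, where Hoxb9 had 8 counts. By cluster, the Hoxd members summed to 6.69 and 6.36 CPM in controls and 15.3 and 18.0 CPM under the knockout label, and the Hoxb members to 78.6 and 74.0 CPM against 57.8 and 54.8 CPM. Hoxa (50.9 and 59.7 against 51.6 and 33.1 CPM) and Hoxc (15.9 and 17.9 against 15.0 and 33.9 CPM) overlapped.

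Of the 39 members, 27 passed the filter on low counts and were tested with edgeR's quasi-likelihood test over 19134 genes. At an adjusted p of 0.05, 4 were higher in the libraries labelled knockout, Hoxa9, Hoxc8, Hoxc9 and Hoxd9. That is 14.8% of those tested, near the 12.1% of all genes that were called higher. Of all calls over all genes, 54.9% were higher, and 64.9% without scaling. None was called lower by edgeR, against 9.95% of all genes; 3 of the 27 were lower at an unadjusted p under 0.05, and DESeq2 called 3 lower (Hoxa5, Hoxb4 and Hoxb5). The count of calls thus does not set the Hox genes apart from other genes. Hoxc8, Hoxc9 and Hoxd10 had under 10 counts in each control and passed the filter through the libraries labelled knockout. The filter asks for about 10 counts in at least 2 libraries. Hoxa9, Hoxa10, Hoxa13 and Hoxd4 had fewer in control replicate 1, and Hoxb9 in control replicate 2. These members thus also needed a library labelled knockout to pass, and their tests are not independent of that. The median log2 fold change of the 27 was 0.17, against -0.0018 for all genes tested. In 11 of the 27 (40.7%) both libraries labelled knockout lay above both controls and in 8 (29.6%) below both, against 34.4% and 33.7% of all genes tested.

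Hoxd9, which patterns the hind trunk and limb, had 32 and 18 counts in the controls against 111 and 129 in the libraries labelled knockout, or 1.46, 0.753, 3.98 and 4.42 CPM. The groups did not overlap, and the libraries labelled knockout lay close together. The log2 fold change was 1.93 ± 0.41 (SE, edgeR adjusted p = 0.0308). Hoxa9, a factor of hind trunk patterning that also acts in blood progenitors, had 4 and 15 counts in controls and 79 and 56 under the knockout label (0.182, 0.627, 2.83 and 1.92 CPM). Its log2 fold change was 2.52 ± 0.62 (SE, edgeR adjusted p = 0.044). Both paralogues were higher in each library labelled knockout than in either control, on few control counts.

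Hoxc8, a gene of mid-trunk identity, had 4 and 8 counts in controls and 54 and 303 in knockout replicates 1 and 2 (0.182, 0.335, 1.93 and 10.4 CPM). It was high in knockout replicate 2 above all, the library with intestinal RNA, while knockout replicate 1 was also above both controls. The log2 fold change was 4.54 ± 0.99 (SE, edgeR adjusted p = 0.0334), and it was 2.87 without knockout replicate 2 (edgeR adjusted p = 0.0141). Hoxc9, its neighbour in the cluster, had 0 counts in both controls and 18 and 33 counts under the knockout label (0.645 and 1.13 CPM). Against a floor of 3 counts over the control group it was at least 13.7-fold higher (edgeR adjusted p = 0.0237). All 4 calls depended on the controls. Without control replicate 1 none of the 4 was called (edgeR adjusted p from 0.0608 for Hoxd9 to 0.187 for Hoxc8), and without control replicate 2 Hoxa9 was the 1 member called (Hoxd9 0.0723, Hoxc9 0.064, Hoxc8 0.129) (with 1 control left, its spread is taken from the other group). Without knockout replicate 2 all 4 kept their call and Hoxa10 and Hoxd13 joined them. With a filter on a mean of 10 counts Hoxa9 was not called (edgeR adjusted p = 0.0554).

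**Figure D3:**
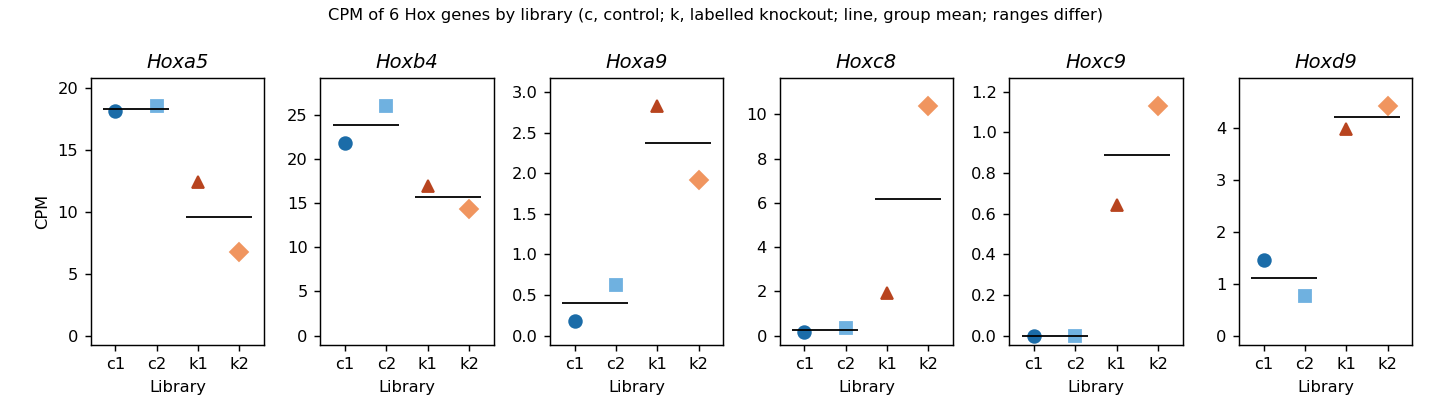
CPM (y axes, linear, different ranges) of 6 Hox genes in control libraries c1 and c2 and in libraries labelled knockout k1 and k2, with lines at the group means. Hoxa5 and Hoxb4 lie lower and Hoxa9, Hoxc8, Hoxc9 and Hoxd9 higher in both libraries labelled knockout; of these 6 the last 4 passed the edgeR threshold.

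Other members of paralogues 9 to 13 had few counts, and most leaned the same way without passing the test. Hoxa10 had 4 and 21 counts in controls and 75 and 36 under the knockout label (log2 fold change 1.86 ± 0.78, edgeR adjusted p = 0.15). Hoxb9 had 18 and 8 against 32 and 48 (1.28 ± 0.55, edgeR adjusted p = 0.155), and Hoxd10 had 0 and 6 against 20 and 13 (2.12 ± 1.06, edgeR adjusted p = 0.206). Hoxa13, a gene of the hindgut and digits, had 0 and 12 counts in controls and 33 and 8 in the libraries labelled knockout, so the groups overlapped (1.48 ± 1.3, edgeR adjusted p = 0.45; 2.18 without knockout replicate 2 and 0.09 without knockout replicate 1). Of 16 members in the class, 9 were higher in each library labelled knockout than in either control, in counts and in CPM, and 0 were lower in CPM. Of all genes tested, 34.4% lay above both controls in this way and 33.7% below both. The 9 include Hoxa11, Hoxd11 and Hoxd13, which had too few counts to be tested, so the shares have unlike bases.

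In this class 9 members were too low to be tested. Hoxd13 had 0 counts in both controls and 26 and 2 in knockout replicates 1 and 2, and Hoxd11 had 0 in both controls and 12 and 6. Over the group, against the floor of 3 counts, Hoxd13 was at least 7.5-fold and Hoxd11 at least 4.82-fold higher. Hoxa11 had 0 and 7 counts in controls and 24 and 10 in the libraries labelled knockout. Hoxc10 had 0 and 2 against 2 and 21 counts, a ratio of 9.24 over the summed counts (95% counting interval 2.28 to 80.8). That interval leaves out the spread between libraries. In CPM the groups overlapped (0.0837 in control replicate 2, 0.0716 in knockout replicate 1), and the ratio rests on knockout replicate 2, the library with intestinal RNA. Hoxc11 had 2 counts in knockout replicate 2, Hoxd12 had 2 in knockout replicate 1 and Hoxc13 had 5 in control replicate 2, each with 0 elsewhere. Hoxb13 and Hoxc12 were at 0 in all 4 libraries, as were Hoxb1 and Hoxd1 of paralogue 1. Hoxa13 and Hoxd13 were thus highest in knockout replicate 1 and Hoxc10 in knockout replicate 2, as was Hoxc8, which lies outside this class. The libraries labelled knockout differed from each other in the levels of these genes.

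Paralogues 1 to 3, the hindbrain and neck group, came mostly from Hoxa2, Hoxa3 and Hoxb3. Hoxa3 had 339 and 419 counts in controls and 368 and 216 in knockout replicates 1 and 2 (15.4, 17.5, 13.2 and 7.39 CPM). Hoxa2 stood at 7.0, 8.78, 5.73 and 2.81 CPM in the same order. Both were below the controls in each library labelled knockout, and neither passed (log2 fold change -0.68 ± 0.30 with edgeR adjusted p = 0.17 for Hoxa3, -0.89 ± 0.40 with 0.168 for Hoxa2). Hoxb3 overlapped, at 7.82, 14.4, 10.8 and 6.44 CPM, as did Hoxb2 (2.23, 4.31, 2.47 and 1.78 CPM). Hoxd3 was not tested, with 1 and 5 counts against 7 and 10. Knockout replicate 2 had the lowest value of Hoxa2, Hoxa3, Hoxb2 and Hoxb3.

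Paralogues 4 to 8 held the most abundant members. Per kilobase of exon, the highest in controls were Hoxa5 (9.78 CPM per kb), which patterns lung and neck structures, and Hoxb4 (9.31), then Hoxb6 (6.68), Hoxb7 (6.60) and Hoxa2 (4.45). In the libraries labelled knockout Hoxb4 led (6.09 CPM per kb), before Hoxb7 (5.39), Hoxa5 (5.12), Hoxb6 (4.68) and Hoxd8 (3.27). Hoxb4 was at 21.8 and 26.0 CPM in controls and 16.9 and 14.3 CPM in knockout replicates 1 and 2, which put every library labelled knockout below the controls by a modest margin (-0.61 ± 0.17, SE, edgeR adjusted p = 0.0597). Hoxa5 stood at 18.1 and 18.6 CPM in controls and 12.4 and 6.78 CPM under the knockout label (-0.94 ± 0.31, edgeR adjusted p = 0.0897). Hoxb5 was at 7.91 and 8.91 against 4.84 and 5.20 CPM (-0.74 ± 0.21, edgeR adjusted p = 0.0651), and Hoxa4 at 5.59 and 6.65 against 4.59 and 2.02 CPM (-0.89 ± 0.44, edgeR adjusted p = 0.201). None of these passed with edgeR. Without knockout replicate 1, Hoxa2, Hoxa3, Hoxa4 and Hoxa5 were called lower, with edgeR adjusted p from 0.00167 for Hoxa5 to 0.0147 for Hoxa4. Those calls rest on knockout replicate 2 as the 1 library of its label, the one with intestinal RNA, with its spread taken from the controls. Without knockout replicate 2 none of the 4 was called: the log2 fold changes of Hoxa2, Hoxa3, Hoxa4 and Hoxa5 were -0.46, -0.32, -0.42 and -0.56 (edgeR adjusted p = 0.445, 0.496, 0.536 and 0.175).

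Within the Hoxa cluster the neighbours Hoxa5 and Hoxa6 went opposite ways. Hoxa6 had 16 and 17 counts in controls and 39 and 45 under the knockout label (1.03 ± 0.36, SE, edgeR adjusted p = 0.1), and Hoxa7 had 43 and 86 against 145 and 223 (1.20 ± 0.40, edgeR adjusted p = 0.0898). Neither passed, although Hoxa7 did with DESeq2 (adjusted p = 0.0423). The Hoxb cluster showed no such turn at this place: Hoxb6 was at 15.9 and 10.4 CPM in controls and 9.13 and 9.24 CPM under the knockout label, and Hoxb7 at 14 and 6.36 against 7.09 and 9.55 CPM. Hoxb8 was at 8.14 and 3.3 against 5.37 and 6.64 CPM. Control replicate 1 was above control replicate 2 in all 3 of these genes.

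The central Hoxc genes varied with knockout replicate 2. Hoxc6 had 78 and 88 counts in controls, 61 in knockout replicate 1 and 238 in knockout replicate 2, and its log2 fold change of 0.52 ± 0.62 turned to -0.72 without that library. Hoxc5 had 55 and 103 counts against 78 and 143 (0.17 ± 0.43, and -0.29 without knockout replicate 2). Hoxc4 was near level, at 9.64 and 9.25 CPM in controls and 7.38 and 8.52 CPM under the knockout label (-0.25 ± 0.19, SE, edgeR adjusted p = 0.398). In the Hoxd cluster, Hoxd8 had 109 and 108 counts in controls and 200 and 315 under the knockout label (0.92 ± 0.28, edgeR adjusted p = 0.0732; 0.60 without knockout replicate 2). Hoxd4 had 5 and 15 against 50 and 52 (2.04 ± 0.54, edgeR adjusted p = 0.0528; 0.0461 without scaling), with the reservation that it shares 52.3% of its exon bases with other genes, Hoxd3 among them.

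Across the 27 tested members the sign of the difference followed the paralogue number. Of 12 tested members numbered 1 to 5, 10 had a negative log2 fold change, the exceptions being Hoxc5 and Hoxd4. Of 15 numbered 6 to 13, 13 had a positive one, the exceptions being Hoxb6 and Hoxb7. The cut between 5 and 6 lies close to where the signs turn in these same data, so both counts depend in part on it. In the classes used above, paralogues 1 to 3 had 0 positive and 5 negative values, 4 to 8 had 8 and 7, and 9 to 13 had 7 and 0. Of those last 7, Hoxd9 alone had at least 10 counts in both controls, and the others needed a library labelled knockout to pass the filter. Of all genes tested, 9545 were positive and 9589 negative. The signs of Hoxb3, Hoxb7, Hoxb8, Hoxc5 and Hoxc6 turned when 1 library was left out. Spearman's rho between paralogue number and log2 fold change was 0.73 over these 27 genes. It is given as a description, since all points come from the same 4 libraries, neighbours in a cluster are not independent, and posterior genes at low counts could pass the filter through 1 group.

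**Figure D4:**
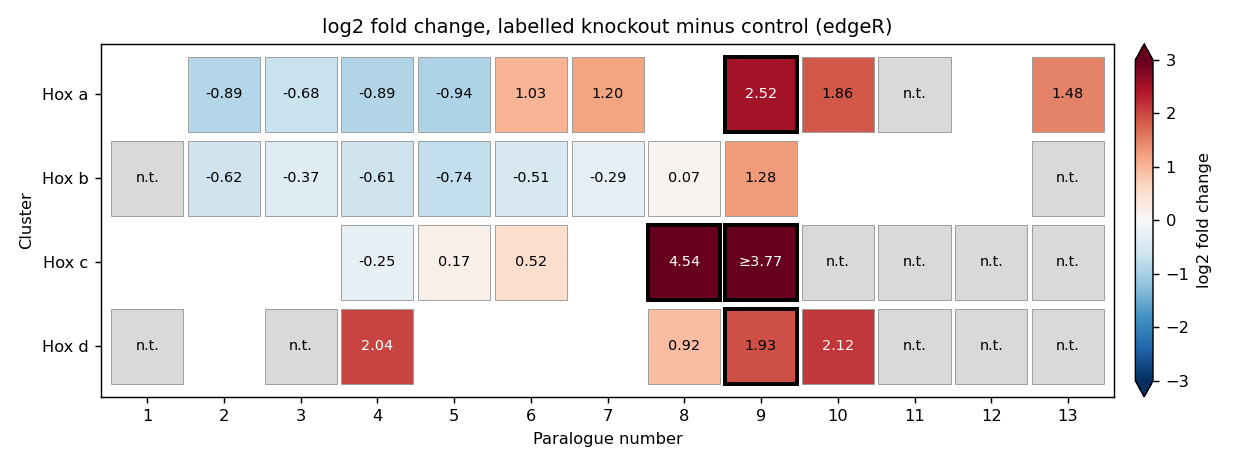
log2 fold change (colour and number; labelled knockout minus control, edgeR) of the Hox genes shown by cluster (y axis) and paralogue number (x axis), with a heavy frame for an adjusted p under 0.05, n.t. for genes with too few counts to be tested, and a lower bound from the floor of 3 counts for Hoxc9 (3.77 on the log2 scale). Values are negative for most members numbered 1 to 5 and positive for most numbered 6 to 13.

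The upstream sequences of 6 of these genes are shown because they differed in opposite directions: Hoxa9, Hoxd8, Hoxd4 and Hoxd10, higher in both libraries labelled knockout, and Hoxa5 and Hoxb4, lower in both. Hoxd4 is an exception to the pattern by number, and Hoxa9 is the only one of these called by edgeR. Each is the 250 bases before the transcription start in RefSeq on GRCm38.p6, written 5′ to 3′ on the strand of the gene; 22 of the 39 members had an entry. Capitals mark AGGTCA or its reverse complement TGACCT, a motif bound by retinoic acid receptors and other nuclear receptors.
Hoxa9 (chr6:52227371-52227620, minus strand): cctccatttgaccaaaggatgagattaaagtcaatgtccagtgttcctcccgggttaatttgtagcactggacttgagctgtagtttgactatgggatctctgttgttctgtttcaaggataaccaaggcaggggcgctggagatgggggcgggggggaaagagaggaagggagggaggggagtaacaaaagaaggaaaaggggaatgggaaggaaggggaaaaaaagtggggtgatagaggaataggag
Hoxd8 (chr2:74704365-74704614, plus strand): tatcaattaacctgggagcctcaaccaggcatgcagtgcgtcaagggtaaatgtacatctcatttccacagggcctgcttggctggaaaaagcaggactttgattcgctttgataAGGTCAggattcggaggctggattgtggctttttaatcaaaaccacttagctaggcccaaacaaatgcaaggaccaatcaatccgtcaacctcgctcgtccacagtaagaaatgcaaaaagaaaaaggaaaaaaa
Hoxd4 (chr2:74721728-74721977, plus strand): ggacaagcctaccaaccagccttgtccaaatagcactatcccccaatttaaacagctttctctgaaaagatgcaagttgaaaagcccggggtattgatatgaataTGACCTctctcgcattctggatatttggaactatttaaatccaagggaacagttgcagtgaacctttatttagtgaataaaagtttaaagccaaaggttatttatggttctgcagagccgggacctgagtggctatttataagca
Hoxd10 (chr2:74691641-74691890, plus strand): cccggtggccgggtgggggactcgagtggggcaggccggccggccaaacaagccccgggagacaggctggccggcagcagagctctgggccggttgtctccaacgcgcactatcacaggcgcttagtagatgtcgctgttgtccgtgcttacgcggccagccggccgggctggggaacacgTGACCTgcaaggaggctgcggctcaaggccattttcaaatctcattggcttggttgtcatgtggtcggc
Hoxa5 (chr6:52204588-52204837, minus strand): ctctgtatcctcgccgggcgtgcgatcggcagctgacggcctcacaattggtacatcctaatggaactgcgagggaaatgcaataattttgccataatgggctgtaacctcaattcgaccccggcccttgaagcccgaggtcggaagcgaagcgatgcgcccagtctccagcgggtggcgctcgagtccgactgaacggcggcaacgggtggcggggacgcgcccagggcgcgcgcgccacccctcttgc
Hoxb4 (chr11:96318017-96318266, plus strand): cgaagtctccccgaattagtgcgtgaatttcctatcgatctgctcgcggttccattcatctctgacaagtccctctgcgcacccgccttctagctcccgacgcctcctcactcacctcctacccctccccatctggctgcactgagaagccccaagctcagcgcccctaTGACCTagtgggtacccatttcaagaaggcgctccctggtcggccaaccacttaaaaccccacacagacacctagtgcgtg
The AGGTCA motif, searched on both strands, was present in Hoxd4, Hoxd8, Hoxd10 and Hoxb4 of the genes shown and in 6 of the 22 Hox windows (27.3%, Hoxc4 and Hoxd3 being the others), against 13.8% of 27025 windows of the same length. Genes that were higher and genes that were lower both held it. The motif TGATNNAT, a joint site of Pbx and Hox proteins, was found in 3 Hox windows (13.6% against 7.91%), those of Hoxa2, Hoxb1 and Hoxb8. TGACAG, bound by Meis proteins, was found in those of Hoxa2 and Hoxa3 (9.09% against 16%). No window held 2 of these motifs in overlap, and a match describes letters, not binding.

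Several of the cofactors with which Hox proteins bind DNA fell. Of 9 TALE homeodomain genes (Pbx, Meis and Pknox families), all of which were tested, 5 fell, none rose and 4 did not pass (edgeR; median -0.52, against -0.0018 for all genes). That is 55.6% called lower, beside 9.95% of all genes, and 0% called higher, beside 12.1%. Meis1, a partner of posterior Hox proteins, was at 56.2 and 64.8 CPM in controls and 36.0 and 29.2 CPM in knockout replicates 1 and 2 (-0.89 ± 0.15, SE, edgeR adjusted p = 0.0182). Pknox2 went from 25.4 ± 1.24 to 14.3 ± 0.53 CPM and Meis2 from 78.0 ± 2.42 to 51.2 ± 4.22 CPM (SD, n = 2; edgeR adjusted p = 0.0175 and 0.0189). The others that fell were Pbx3 (26.5 ± 1.46 to 16.4 ± 1.74 CPM) and Meis3 (37.5 ± 2.74 to 26.1 ± 0.885 CPM). Without control replicate 1 or control replicate 2, 0 of the 9 were called, although the median was -0.45 and -0.60. Without knockout replicate 2, 2 were called.

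**Figure D5:**
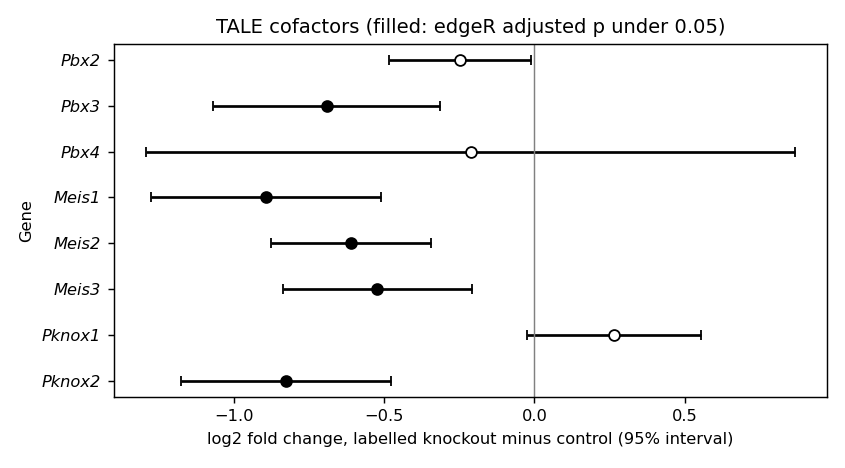
log2 fold change with its 95% interval (x axis; labelled knockout minus control, edgeR) of 8 TALE cofactor genes (y axis), filled where the adjusted p is under 0.05. Meis1, Meis2, Meis3, Pbx3 and Pknox2 are filled and lie below 0, and Pknox1 is the 1 gene with a positive value.

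Noncoding RNAs of the clusters had few counts. Of 18 found by symbol, 6 were tested and none was called (edgeR; 1 had an unadjusted p under 0.05, and this was Hoxb5os). Hoxa11os, antisense to Hoxa11, had 0 and 5 counts in controls and 15 and 4 in the libraries labelled knockout, beside 0, 7, 24 and 10 for Hoxa11. The strand setting of the count step is unknown here, and without it reads of the pair cannot be told apart. Hottip, which lies beyond Hoxa13, had 2 counts in knockout replicate 1, and Hotair, in the Hoxc cluster, was at 0 in all libraries. Counts at the microRNA genes Mir10a, Mir10b, Mir196a-1, Mir196a-2, Mir196b and Mir615 were at most 12 in any library and describe reads over the precursor, not the mature form.

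Among the ParaHox genes, relatives of the Hox genes in gut and pancreas, Pdx1 was the 1 tested and fell from 6.18 ± 0.127 to 1.72 ± 0.105 CPM (SD, n = 2; -1.85 ± 0.26 on the log2 scale, edgeR adjusted p = 0.012; 0.0642 without control replicate 1). Islet markers, among them Pdx1 itself, summed to 757 to 1346 CPM in controls and 111 to 351 CPM under the knockout label, and duct markers to 1949 to 2388 against 651 to 654 CPM. The part of these in the level of Pdx1 was not tested. Cdx2, a factor of intestinal epithelium that regulates Hox genes, had 127 counts in knockout replicate 2 and 0 in the other libraries, and Cdx1 had 113 there, 4 in knockout replicate 1 and 0 and 6 in controls. Gsx1, Gsx2 and Cdx4 were at 0 throughout.

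Among genes that act on Hox clusters, calls were made in both directions. Of 24 Polycomb and Trithorax genes, which hold Hox chromatin silent or active, 4 rose (16.7%) and 3 fell (12.5%), near the 12.1% and 9.95% of all genes. Cbx7, a Polycomb reader, went from 52.4 ± 2.45 to 144 ± 8.43 CPM and Pcgf2, another Polycomb subunit, from 56.3 ± 1.60 to 26.0 ± 2.30 CPM (SD, n = 2; edgeR adjusted p = 0.00273 and 0.00689). Without control replicate 1, 2 rose and 1 fell. Of 18 genes of retinoic acid, the signal that induces Hox genes in the embryo, 2 rose (11.1%, beside 12.1% of all genes) and 5 fell (27.8%, beside 9.95%). Stra6, the retinol importer, went from 77.2 ± 6.42 to 18.2 ± 0.207 CPM. Cyp26b1, which degrades retinoic acid, rose from 11.6 ± 0.237 to 24.5 ± 0.0444 CPM (edgeR adjusted p = 0.00179 for Stra6 and 0.00968 for Cyp26b1). Cyp26a1 and Cyp26c1 of the same family leaned the other way and did not pass (log2 fold change -1.98 and -0.75, edgeR adjusted p = 0.0683 and 0.522). Without control replicate 1, 0 rose and 2 fell, and Cyp26b1 was not called (0.0534).

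Other transcription factors of regional mesenchyme were mostly not called. Of 29, 21 were tested, 1 rose (4.76%, beside 12.1% of all genes) and 4 fell (19.0%, beside 9.95%). Gata6 went from 64.7 ± 5.02 to 42.9 ± 4.02 CPM and Prrx1, a limb and trunk mesenchyme factor, from 150 ± 24.9 to 75 ± 18.9 CPM (SD, n = 2; edgeR adjusted p = 0.0279 and 0.0322). Both calls were lost without control replicate 1 (edgeR adjusted p = 0.0752 and 0.146) and without control replicate 2 (0.0845 and 0.0683). Without knockout replicate 2, Gata6 was not called either (0.113). Barx1, the stomach mesenchyme factor, differed within groups more than between them, at 16.8 and 1.0 CPM in controls and 7.16 and 0.0685 CPM in the libraries labelled knockout.

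Markers of stromal and other cells moved with the label in the same libraries. Fibroblast and matrix markers fell in 9 of 15 cases (60.0%, beside 9.95% of all genes called lower by edgeR). Their sum was 28891 to 34365 CPM in controls and 10688 to 12647 CPM in the libraries labelled knockout. Per 1000 CPM of these markers, all Hox genes together stood at 5.26 and 4.59 CPM in controls and 11 and 13.1 CPM under the knockout label, and paralogues 9 to 13 at 0.0913 and 0.114 against 1.23 and 1.17 CPM. Per 1000 CPM of the receptors Pdgfra and Pdgfrb alone, paralogues 1 to 3 overlapped (58.0 and 71.4 against 78.9 and 60.7 CPM) and paralogues 9 to 13 stood at 4.47 and 6.0 against 36.1 and 37.9 CPM. The posterior genes were higher on each of these scales, while the sum of all Hox genes was lower in CPM and higher per unit of these markers. Both marker scales were lower under the knockout label, so a posterior sum already higher in CPM had to be higher per unit of them. Most of the matrix sum was Col1a1, Col1a2 and Col3a1 (7402, 6136 and 9279 CPM on average in controls), whereas Dcn, Dpt, Fbln1 and Pi16 overlapped between labels.

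The counts of calls in the next lists stand beside 12.1% of all genes tested called higher and 9.95% called lower by edgeR. Adipocyte markers rose in 6 of 7 cases (313 to 854 CPM summed in controls, 3173 to 3752 CPM in the libraries labelled knockout), lymphocyte markers in 10 of 10 (43.3 to 64.5 against 917 to 924 CPM) and lymph node stroma markers in 6 of 7 (80.5 to 138 against 666 to 723 CPM). Smooth muscle and pericyte markers were called in 0 of 8 cases by edgeR, with 2 lower at an unadjusted p under 0.05, and were uneven within groups (1581 and 3762 CPM in controls, 2181 and 1189 CPM in knockout replicates 1 and 2). Myeloid progenitor and neutrophil markers, whose cells can express Hoxa9, rose in 3 of 8 cases (Elane, Mpo and Cxcr2) and fell in 1 (Csf3r). Their sum was 202 CPM in both controls and 133 to 142 CPM in the libraries labelled knockout. Most of that sum was Csf3r, at 141 CPM on average in controls and 72.6 CPM under the knockout label. Elane had 0 and 3 counts in controls and 45 and 57 under the knockout label, and Mpo had 5 and 6 against 52 and 34. Schwann cell and nerve markers rose in 2 of 7 (30.8 to 51.5 against 68.2 to 96.1 CPM) and endothelial markers in 2 of 8 (671 to 934 against 1058 to 1165 CPM). The other 5 nerve markers and 6 endothelial markers were not called. Mesothelial markers summed to 446 to 510 against 322 to 482 CPM. Of the 6 mesothelial markers the 1 that fell was Krt19, which is also a duct marker, whereas Upk3b and Upk1b had log2 fold changes of 0.76 and 0.40 and did not pass (edgeR adjusted p = 0.0556 and 0.239). Of tissues outside the pancreas, skeletal muscle markers summed to 6.14 to 14.4 CPM in controls and 9.55 to 11.4 CPM under the knockout label, with 2 of 6 higher and Myh4 at 0 throughout. Kidney markers summed to 1.46 to 1.63 against 0.445 to 1.04 CPM, with Slc34a1 at 0. The part of these cell types in the Hox values was not tested.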

How the data were processed

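RNA of 4 mouse pancreas libraries was counted per gene symbol by the authors; the deposited values are raw counts, whole numbers, with 1 file per library. Per the labels' protocols, RNA was extracted with TRIzol, freed of DNA with DNase, and sequenced after preparation with the VAHTS Universal V6 kit. The submitters' processing notes list STAR 2.7.6a, featureCounts 2.0.1, Trim Galore 0.6.6, FastQC 0.11.9 and SAMtools 1.7, and the genome build GRCm38. Neither strand setting nor annotation release was given in these sources, nor how multiply aligned reads were handled. If reads in exons of overlapping genes were dropped, the counts of Hoxb3, Hoxd3 and Hoxd4 would be understated.

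Groups and replicate numbers came from the sample titles. The tests used R 4.3.3 and the quasi-likelihood method of edgeR 4.0.16 (TMM factors, filterByExpr, group as the only term, Benjamini-Hochberg over 19134 genes, threshold 0.05), a step tested on simulated data. SE is the log2 fold change over the square root of F. Exon lengths and coordinates came from GENCODE M21, in which 53292 of 55291 symbols were found. Alternatives were other scalings and filters, DESeq2 1.42.0, the replicate number as a block, and each library left out. Called members are named with all values, as are the 6 uncalled ones of highest mean CPM; of the other Hox-related lists the 3 called genes with the smallest p are named where reported, and further genes were chosen after their values were seen. The members and lists were chosen with earlier results of these data known. Some members of the lists are counted in totals but not reported singly here.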

Additional observations from a re-analysis of the deposited data

How the results depend on the processing

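The higher share of paralogues 9 to 13 in the libraries labelled knockout, 7.90 percentage points, lay between 6.80 and 9.01 when 1 library was left out and was 7.36 with counts per kilobase of exon. Split instead at paralogues 1 to 5 and 6 to 13, the difference was -18.2 and 18.2 points; in a check added after seeing the data, the latter ranged from 10.6 without knockout replicate 2 to 25.8 without knockout replicate 1. For paralogues 1 to 3 the difference of -6.76 points ranged from -11.8 to -1.73 without 1 library. For paralogues 4 to 8 (-1.14) it ranged from -7.28 to 5.0, with its sign reversed without control replicate 1 (2.80) and without knockout replicate 1 (5.0).

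The number of Hox genes called higher, 4, was 7 with DESeq2 and ranged from 0 to 7 without 1 library: 0 without control replicate 1, 1 without control replicate 2 and 7 when knockout replicate 1 was omitted. The number called lower, 0, was 3 with DESeq2 and 0 to 4 without 1 library, with 4 lower without knockout replicate 1. The cause of these changes was not tested. Both counts stayed within 1.5 times their value with DESeq2 size factors, without scaling and under the 2 other filters. The log2 fold changes of 6 single genes changed sign when 1 library was left out: Hoxb3 from -0.79 to 0.14, Hoxb7 from -0.75 to 0.39, Hoxb8 from -0.44 to 0.86, Hoxc5 from -0.29 to 0.62, Hoxc6 from -0.72 to 1.17 and Pbx4 from -0.83 to 0.22. Those of the opposite sign were Hoxb7 (0.39) and Hoxc5 (-0.16) without control replicate 1, Hoxb3 (0.14) and Hoxb8 (-0.44) without control replicate 2, and Hoxb8 (-0.09), Hoxc5 (-0.29), Hoxc6 (-0.72) and Pbx4 (0.22) without knockout replicate 2. None of these 8 values passed the edgeR threshold. Without scaling, the median of all genes was 0.097 on the log2 scale, and 64.9% of all calls were higher, against 54.9%. Over all genes, 2320 were called higher and 1904 lower; without control replicate 1 these were 702 and 424, and without control replicate 2 1137 were lower.

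Same-numbered replicates deviated from their group means with a correlation of 0.0282 across genes, so the numbers are not taken to pair the samples. With the replicate number as a block 4 Hox genes were higher and 0 lower; Hoxa7 (edgeR adjusted p = 0.0497) replaced Hoxa9 (0.0598). Of the cofactors 3 fell in place of 5, and of the Polycomb and Trithorax genes 1 in place of 3. Posterior Hox genes rest on few counts. The floor of 3 counts over the control group was set for the lower bounds and is not a measured limit of detection. On such counts Hoxd10, with a log2 fold change of 2.12, did not pass, at 0 and 6 counts in controls against 20 and 13 (edgeR adjusted p = 0.206).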
